A study of Mus musculus with 12 samples.

Results

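CCRR is a long non-coding RNA of the heart, and the comparison described here concerns hearts of CCRR transgenic mice in which no infarct had been made, set against uninfarcted wild-type hearts. Its members were the 3 microarrays whose labels give CCRR transgenosis without infarction (TG) and the 3 labelled wild type (WT), 6 of the 12 arrays of the series, each read over every probe that was not a control spot. The other 6 arrays came from infarcted hearts, 3 of wild-type mice (WT_MI) and 3 of transgenic mice (TG_MI), and the series title concerns CCRR, inflammation after infarction and Toll-like receptor signalling. Every sample was fresh heart tissue, with no chamber named in the labels, from mice kept on a 12 h light and dark cycle with normal food and water. WT and WT_MI carry the strain label C57/BL6, while the TG and TG_MI labels give no strain, so strain and transgene cannot be told apart. For the promoter that drives the transgene, its site of insertion, the number of founder lines, the age and sex of the mice and the hour of tissue collection, no statement was found in the sources used here. The labels do not say if a group's 3 samples are 3 animals, so a p-value covers the scatter of these samples alone, part or all of which may be technical.

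As background, CCRR takes its name from cardiac conduction and has been studied for its bearing on connexin 43, the gap junction protein that couples cardiomyocytes. Heart tissue holds cardiomyocytes together with fibroblasts, which make the collagens and proteoglycans of the matrix, and with endothelial, mural, valve and immune cells, all of which contribute RNA to a tissue sample. In bulk tissue of this kind, fewer cells of a type and less RNA per cell cannot be told apart. The array has 0 spots named CCRR, so the transgene itself could not be read. The tissue label was borne out by cardiomyocyte genes: Myh6, the main myosin heavy chain of the adult mouse heart, stood at 8.91, 9.28 and 8.89 in WT and at 8.57, 8.66 and 8.77 in TG. These and all later levels are log2 of the deposited signal minus the 75th percentile of that array, called the log2 level below, so a level of 0 equals that percentile, and every difference is TG minus WT on that scale.

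Between 49.3% and 55.7% of the non-control probes were well above background on the 6 arrays. All 3 WT arrays lay in the first row of slide 1, TG replicates 1 and 2 in its second row, and TG replicate 3 on slide 2, so array row and genotype cannot be told apart within slide 1. The first principal component of the 6 arrays held 55.8% of the variance and separated TG, at 55.1, 28.3 and 22.3, from WT, at -40.9, -30.8 and -34.0.

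Of 19761 genes tested, 518 passed an adjusted p of 0.05 in limma's moderated test, 2.62% of those tested. In TG 294 genes were higher (1.49%) and 224 were lower (1.13%). The higher genes had a median difference of 1.36 and the lower ones of -0.97, against -0.06 over all genes tested. The 3 TG arrays lay wholly above or below the 3 WT arrays in all 518, but this also held for 33.5% of all genes tested, with TG above WT in 12.6% and below in 20.9%. At an unadjusted p under 0.05 there were 3543 genes. Leaving out any single WT array reduced the count to between 137 and 162, and a core of 106 genes, 67 higher and 39 lower, was called in each of the 12 fits that left out 1 array. Slide as a block gave the same fit of this contrast as leaving out TG replicate 3, since no other TG or WT array lay on slide 2. The accounts below name some of the genes that belong to the core, so a gene without that remark may also belong to it.

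**Figure D1:**
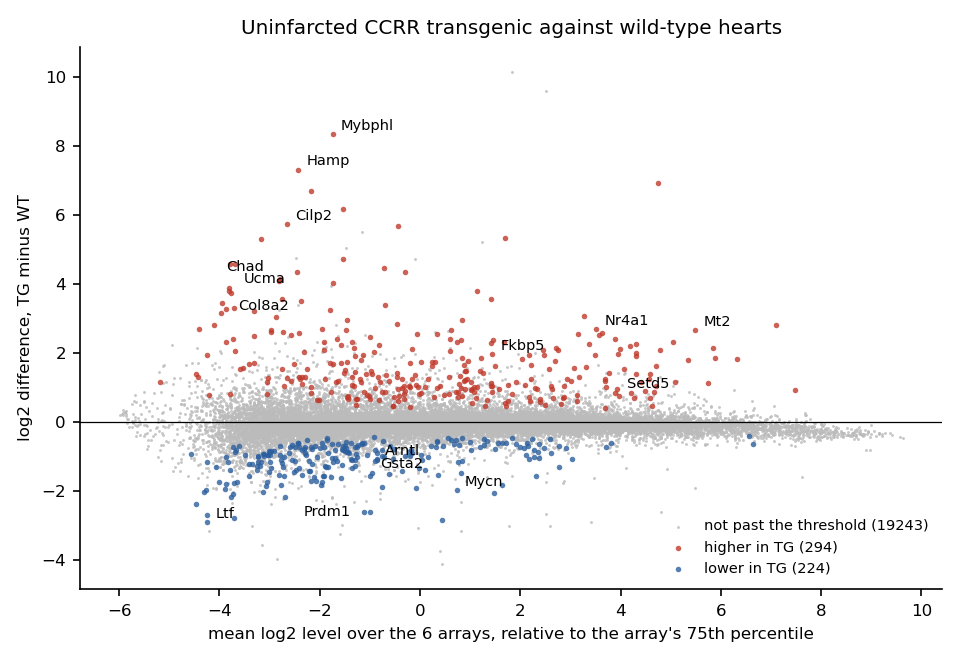
Difference of each tested gene, TG minus WT in log2 units, against its mean log2 level over the 6 arrays. The 294 genes called higher in TG (red) reach a difference of 8.33 for Mybphl, and the 224 called lower (blue) reach -2.90 for Ltf. Mybphl was tested only because TG was high, and Ltf only because WT was high. Grey points did not pass the threshold.

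Genes of the extracellular matrix were higher in TG, among them several best known from cartilage and tendon. Of 122 tested genes on 7 matrix lists, 30 rose in TG and 0 fell, 24.6% of them called, beside 2.62% of all genes tested. The lists used here and below were chosen with earlier results of these data known, so such shares are a description. The median difference was 0.67, and 111 of the 122 had a positive difference. On 82 of them, 67.2%, every TG array lay above every WT array, beside 12.6% of all genes tested. With slide as a block, that is without TG replicate 3, 19 of the 30 kept their call. A gene was tested if it stood well above background on all 3 arrays of any group, and 5 of the 122 met this through the TG arrays alone, so that they had to differ: Ucma, Cilp2, Col8a2, Epyc and Fmod. Without these 5, which were all called, 25 of 117 had risen, 21.4%, and the median was 0.62. Chad stays among the 117, although it was tested through TG and TG_MI alone, the groups in which it was high.

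Ucma is a small secreted protein of cartilage that binds calcium. Its log2 level was -6.13, -5.90 and -5.88 in WT, not well above background on any of them, and -0.84, -1.47 and -1.88 in TG, above background on all 3. All 3 TG arrays stood far above all 3 WT arrays. The rise was at least 5.30-fold (measured difference 4.57 ± 0.22, standard error, n = 3 and 3, limma adjusted p = 1.44e-05), and both of its probes with signal rose, by 3.60 and 4.57. Col8a2, a network-forming short-chain collagen, went from -5.91, -5.46 and -5.70 in WT to -1.22, -2.11 and -2.40 in TG. Col8a2 too was not above background on any WT array, so that its rise was at least 3.70-fold (adjusted p = 0.000221). Prss35, a secreted serine protease-like protein, was at -5.69, -5.69 and -5.85 in WT and at -1.05, -2.75 and -1.79 in TG, at least 3.83-fold higher (adjusted p = 0.000762). All 3 genes were in the core, and all 3 were above background on 0 WT, 0 WT_MI and 0 TG_MI arrays, so their p-values concern genes that were tested only because TG was high.

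Small leucine-rich proteoglycans are short proteins that sit on collagen fibrils and set their diameter and spacing. Of 17 listed, 13 were tested, 5 rose and 0 fell, with a median difference of 0.81, and 3 of 11 with a median of 0.71 without Epyc and Fmod, which were tested through TG alone. Chad, chondroadherin, which links collagen to cells, stood at -4.28, -5.07 and -5.23 in WT, below background, and at -0.18, -0.86 and -1.12 in TG, a rise of at least 8.43-fold (adjusted p = 0.000221). Epyc, epiphycan of growth cartilage, was at -6.04, -4.99 and -5.97 in WT and at -1.0, -2.82 and -2.85 in TG, at least 2.98-fold higher (adjusted p = 0.00737). Both were therefore above background on every TG array and on no WT array. Chad was also above background on 3 TG_MI and 0 WT_MI arrays, so it was tested through transgenic arrays alone. Fmod, fibromodulin of tendon, differed by 3.50 ± 0.33, and Podn, podocan, by 1.94 ± 0.38. Of the members that were already well above background in WT, Bgn, biglycan, stood at 0.48, 0.54 and 0.67 in WT and at 1.94, 1.39 and 1.20 in TG, a difference of 0.95 ± 0.17 (adjusted p = 0.0203), against 0.33 at the other of its 2 probes with signal. Prelp (0.81), Lum, lumican (0.71), Aspn, asporin (0.28), Dcn, decorin (0.20), and Ogn, osteoglycin (-0.08), did not pass the threshold. Chad, Epyc and Fmod were in the core of genes called in every leave-one-out fit, and 3 to 5 members of the list were called in those fits.

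Of 25 genes of cartilage and tendon matrix, 14 were tested, 5 rose and 0 fell, with a median of 0.88. Ucma and Cilp2 were tested through TG alone, and without them 3 of 12 rose, with a median of 0.72. Cilp2, a cartilage intermediate layer protein, was at -4.86, -5.80 and -5.89 in WT and at 1.65, -1.06 and 0.09 in TG, at least 16.3-fold higher (adjusted p = 0.0026). Comp, a pentameric protein that bridges collagen fibrils, stood at -0.88, -0.99 and -0.08 in WT and at 2.95, 2.16 and 1.79 in TG, a difference of 2.95 ± 0.43. The related Cilp (2.23 ± 0.37) and Matn2 (0.80 ± 0.17) rose as well. Matn2 rested on its brightest probe, since the 4 probes of that gene with signal ranged from -1.29 to 0.80. The collagen that defines cartilage, Col2a1, was above background on all 6 arrays, at -1.78, -1.47 and -2.34 in WT and at 0.75, -0.59 and -1.17 in TG, higher on every TG array but not past the threshold (1.53, adjusted p = 0.175). The cartilage regulator Sox9 differed by 0.60 and the minor collagen Col9a2 by 0.22, also without passing. Aggrecan, Acan, was above background on 0 WT arrays and 1 TG array, Col11a1 on 0 and 2, Col11a2 on 1 and 2, and Matn1 and Matn3 on none of the 6. The tendon regulator Scx differed by -0.10 and was not called.

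Collagens followed, with 6 of 21 tested members higher, 0 lower and a median of 0.88. Without Col8a2, tested through TG alone, 5 of 20 rose, with a median of 0.86. In 18 of the 21 every TG array lay above every WT array, beside 12.6% of all genes tested. Col4a6, a basement membrane chain, went from -3.01, -2.79 and -3.01 in WT to 1.32, -0.56 and -0.72 in TG (2.95 ± 0.47, adjusted p = 0.0117). Col12a1, which decorates the surface of fibrils, was not above background in WT, at -4.63, -5.64 and -4.81, and rose to -2.20, -2.95 and -2.94, at least 2.15-fold. The bulk fibrillar chain Col1a2 was already strong in WT, at 5.11, 5.31 and 5.10, and reached 6.75, 6.04 and 6.14 in TG (1.13 ± 0.25, adjusted p = 0.044). The 2 chains of the ubiquitous vascular basement membrane did not pass the threshold, Col4a1 differing by 0.17 and Col4a2 by 0.13. Adamts2, the enzyme that trims the amino end of procollagen, rose by 1.29 ± 0.20 and was in the core, although the other of its 2 probes with signal differed by -0.17.

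Elastic fibre genes gave 6 of 21 higher and 0 lower, and all 21 differences were positive. Ltbp2, a fibrillin-binding protein, went from -0.80, -0.98 and -0.36 to 2.64, 1.57 and 1.62 (2.66 ± 0.42, adjusted p = 0.0117). Eln, elastin, went from -0.92, -0.60 and -1.26 to 2.72, 1.18 and 0.92 (2.54 ± 0.44, adjusted p = 0.0167). In both genes TG replicate 1 was the highest array. Among the leave-one-out fits between 0 and 9 members of this list were called, 0 of them without WT replicate 2, so its count rested on single arrays. Of 21 metalloproteases and inhibitors, 3 rose, 14.3%, beside 2.62% of all genes tested, and 1 to 5 were called in the leave-one-out fits. They were Adamts8, which went from -2.86, -3.19 and -2.80 to 3.08, 0.28 and 1.18 (4.47 ± 0.55), Mmp3 (1.05 ± 0.21) and Timp4 (1.93 ± 0.45). Of 16 matricellular genes, 3 rose, 18.8%: Ccn2, connective tissue growth factor (1.62 ± 0.32), Postn, periostin (1.25 ± 0.27), and Thbs3 (0.95). Between 0 and 4 members of that list were called in the leave-one-out fits, with 0 when WT replicate 1, WT replicate 3 or TG replicate 1 was left out.

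Markers of the resident fibroblast showed a single call. Of 15 such markers 1 rose, Mfap5 (1.18 ± 0.22), the median was 0.17, and their summed linear level was 755 to 890 in WT and 810 to 849 in TG. Pdgfra, the receptor most used to identify these cells, differed by 0.42, and Tcf21, their lineage factor, by 0.02, neither past the threshold. Of 9 myofibroblast markers 3 rose, 33.3%, beside 2.62% of all genes tested. They were Postn, Col8a1 and Tagln, and the median of the list was 0.84. In the leave-one-out fits 0 to 5 of its members were called, with 0 when WT replicate 1, 2 or 3 was left out. Of 14 smooth muscle and pericyte markers 3 rose, 21.4%: Cnn1 (3.57), Tagln (2.10) and Myh11 (1.75), contractile proteins of smooth muscle. The median was -0.12, and Acta2, smooth muscle actin, differed by 0.10 at its brightest probe and by up to 1.89 at the others. For this list 0 to 4 members were called in the leave-one-out fits, with 0 when WT replicate 1, 2 or 3 was left out.

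Some markers of the atria were also higher in TG, and those of endocardium and valve can be read beside them. Of 14 tested atrial markers 4 rose and 0 fell, all 14 differences were positive, and the median was 1.44. Mybphl, Myl7 and Sln were tested through TG alone. Without these 3 the median was 0.97, and 3 of 11 were called, 27.3%, beside 2.62% of all genes tested. Myl4, the atrial essential light chain, was at 1.39, 1.33 and 1.12 in WT and at 9.05, 6.89 and 8.66 in TG. Mybphl, an atrial myosin-binding protein, was not above background in WT, at -6.10, -5.79 and -5.80, and stood at 4.00, 0.45 and 2.84 in TG, at least 74.8-fold higher (adjusted p = 0.0345). That p-value concerns a gene tested only because TG was high. The regulatory light chain Myl7 differed by 9.59 and sarcolipin, Sln, by 10.15, but their WT arrays ranged from -4.93 to -0.91 and from -5.89 to -1.14, and neither passed the threshold (adjusted p = 0.122 and 0.118). The summed level of the 15 atrial markers was 89.6 to 90.7 in WT and 1620, 524 and 1300 in TG replicates 1, 2 and 3. The 6 ventricular markers all had a negative difference, with a median of -0.48 and 0 called, and summed to 1170 to 1580 in WT and 821 to 1150 in TG. Of 5 tested markers of endocardium and valve, 4 had every TG array above every WT array, beside 12.6% of all genes tested. The 1 called, Wnt9b, was tested through TG alone, and 0 of the other 4 were called. The list of 6 summed to 5.68 to 8.34 in WT and 9.91 to 19.6 in TG. Brown adipocyte markers summed to 22.2 to 26.2 in WT and to 75.6, 30.0 and 29.0 in TG replicates 1, 2 and 3. Epicardial and mesothelial markers summed to 2.69 to 3.74 in WT and to 7.99, 3.91 and 3.11 in TG. How far atrial tissue, valve tissue or any of these other tissues in the samples bears on the matrix result was not tested.

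The atrial and matrix genes were also read after infarction. The atrial sum was 703, 325 and 257 in WT_MI and 204, 351 and 94.5 in TG_MI. Myl4 was at 7.15, 0.66 and 0.83 in WT_MI and at 2.07, 5.27 and 1.31 in TG_MI, so that it was high on 1 array of each group. On WT_MI replicates 2 and 3 Myl7 was at -4.48 and -4.02 and Sln at -5.62 and -5.15. The sums of those arrays thus came from other genes of the list, which also holds Nppa, and which genes made them up was not tested. On WT_MI replicate 1 Ucma was at -5.84, Chad at -5.64, Col8a2 at -5.67, Cilp2 at -5.37, Epyc at -5.14 and Fmod at -4.53. On TG_MI replicate 2 they were at -6.46, -3.55, -6.37, -5.93, -6.55 and -5.28, in the same order. These genes were picked for being high in TG. Chad was tested through TG and TG_MI alone and the others through TG alone, so their levels here are a description. Of the 30 called matrix genes, 1 was also called in TG_MI against WT_MI. That gene was Chad, which was higher in TG_MI by 2.31 (adjusted p = 0.0185) with levels of -3.55, -3.55 and -2.97 against -5.64, -5.55 and -5.81 in WT_MI. Its p-values in both contrasts concern a gene tested only because the transgenic groups were high.

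Some genes of the secreted signals that act on the matrix were also higher. The TGF-beta and BMP families are secreted ligands that drive or restrain matrix production through SMAD proteins. Of 29 tested genes of these pathways 6 rose and 0 fell, with a median of 0.44. Without the 2 tested through TG alone, of which Chrdl1 was called, 5 of 27 rose, 18.5%, beside 2.62% of all genes tested, and the median was 0.44. The ligand genes Tgfb1 (-0.24), Tgfb2 (0.21), Tgfb3 (0.73), Bmp2 (0.47), Bmp4 (0.86), Bmp5 (-0.21), Bmp6 (0.29) and Bmp7 (-0.64) did not pass the threshold. Inhba, the subunit of activin A, went from -2.18, -1.82 and -1.78 to 0.44, -0.03 and -0.08 (2.03 ± 0.38, adjusted p = 0.0225). Of the targets and brakes of the pathway, Skil, a SMAD co-repressor, rose by 0.87 ± 0.14 and Id1, an inhibitor of DNA binding, by 0.96 ± 0.20. Chrdl1, a secreted BMP antagonist, rose by 2.60 ± 0.54, at least 4.33-fold, and Fstl1, a secreted glycoprotein, by 1.04 ± 0.21, with its 3 probes ranging from -0.30 to 1.09. In infarcted hearts Inhba was lower in TG_MI than in WT_MI, with a difference of -1.61, and the test of one genotype difference against the other gave limma adjusted p = 0.0155.

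Wnt proteins are lipid-modified ligands, and several secreted proteins bind them or their receptors and hold them back. Of 16 tested genes of this list 6 rose and 0 fell, with a median of 1.23. Wnt9b was tested through TG alone, and without it 5 of 15 rose, 33.3%, beside 2.62% of all genes tested, with a median of 1.19. Wnt4, one of these 5, was tested through TG_MI alone. The ligands Wnt2 (1.19 ± 0.26), Wnt4 (1.53 ± 0.32, at least 1.96-fold) and Wnt9b (3.28 ± 0.63, at least 3.00-fold) were higher, Wnt4 and Wnt9b from levels below background on every WT array. Frzb, a decoy receptor, went from -1.52, -1.96 and -1.46 to 0.20, -0.41 and -0.59 (1.38 ± 0.20, adjusted p = 0.00775), and Nkd1, a feedback inhibitor inside the cell, rose by 1.70 ± 0.28. Dkk3 rose by 5.34 ± 1.02 and is counted on the atrial list as well. Frzb was the member that belonged to the core.

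The next set of genes was that induced by glucocorticoids, the adrenal steroids released under stress and over the day, which act through the nuclear receptor encoded by Nr3c1. Of 17 such genes, 12 rose and 0 fell, 70.6% of them called, beside 2.62% of all genes tested. This list and that of the immediate early genes below were likewise chosen with earlier results known, so their shares are a description. In 16 every TG array lay above every WT array, beside 12.6% of all genes tested, and the median difference was 1.77. Mt2, a metallothionein that binds zinc and copper, stood at 4.56, 4.02 and 3.89 in WT and at 6.51, 7.08 and 6.85 in TG (2.66 ± 0.24, adjusted p = 0.00122), and was the member in the core. Fkbp5, a co-chaperone that dampens the receptor, went from 0.65, 0.23 and 0.51 to 2.71, 2.32 and 2.25 (1.97 ± 0.37, adjusted p = 0.0248). Zbtb16, a transcription factor, went from 2.14, 2.17 and 2.73 to 5.04, 5.02 and 4.76 (2.59 ± 0.53, adjusted p = 0.0332). No TG array overlapped WT in any of these 3 genes.

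The other members that rose act in metabolism and growth control. Ddit4, an inhibitor of mTORC1, differed by 2.39 ± 0.45, Sgk1, a kinase that regulates ion transport, by 1.90 ± 0.38, and Per1, a clock repressor, by 2.26 ± 0.50. Pdk4, which shuts pyruvate out of the mitochondrion, went from 4.41, 5.12 and 4.79 to 6.83, 6.82 and 7.11 (2.14 ± 0.42, adjusted p = 0.0271), and Angptl4, an inhibitor of lipoprotein lipase, rose by 2.54 ± 0.46. Cebpd (1.52 ± 0.29), Errfi1 (1.56 ± 0.35), Mt1 (0.92 ± 0.17 at the brighter probe, 3.32 at the other) and Tsc22d3 (0.90 ± 0.19) completed the list of those called. Values that did not pass were 0.83 for Klf9, 1.55 for Cdkn1a, 1.77 for Hif3a and 0.90 for Sult1a1, all positive, and the receptor gene Nr3c1 differed by -0.19 from levels of 4.68 to 4.70. With slide as a block only Mt2 of these 17 remained past the threshold, the other 11 called members reaching adjusted p = 0.0537 for Fkbp5 to 0.0978 for Per1. Between 1 and 16 members were called when single arrays were left out, with 1 called without WT replicate 1, without WT replicate 3 or without TG replicate 3.

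Immediate early genes, whose transcription starts within minutes of a stimulus without new protein, were higher too. Of 32 tested 10 rose and 0 fell, 31.2% of them called, beside 2.62% of all genes tested, with a median of 0.80. Fos, a subunit of the AP-1 transcription factor, stood at -2.59, -2.33 and -2.50 in WT and at 1.87, 2.58 and 1.18 in TG (4.35 ± 0.74, adjusted p = 0.0153). Nr4a1, an orphan nuclear receptor, went from 1.74, 2.16 and 2.64 to 4.29, 5.49 and 4.82 (2.68 ± 0.38, adjusted p = 0.0077). Dusp1, a phosphatase that turns off MAP kinases, went from 3.76, 3.77 and 3.69 to 5.61, 6.19 and 5.63 (2.07 ± 0.23, adjusted p = 0.00378). In these 3 genes the groups did not overlap, and TG replicate 2 was the highest array. Zfp36, which destabilises cytokine mRNAs, rose by 2.37 ± 0.38, Btg2, an antiproliferative factor, by 1.62 ± 0.22, Klf4 by 1.40 ± 0.21, Gadd45g by 1.42 ± 0.30, Nr4a2 by 1.31 ± 0.28, Klf2 by 1.25 ± 0.24 and Dusp6 by 0.95 ± 0.16. Egr1 differed by 1.62, Fosb by 1.51 and Jun by 0.75, each with every TG array above every WT array but not past the threshold, and Nr4a3, whose groups overlapped, by 0.43. Nr4a1, Dusp1, Btg2 and Klf4 were in the core, and with slide as a block 6 of the 10 remained. How tissue was handled before RNA extraction, and at what hour it was taken, is not given in the sources used here, and its part in these genes was not tested.

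**Figure D2:**
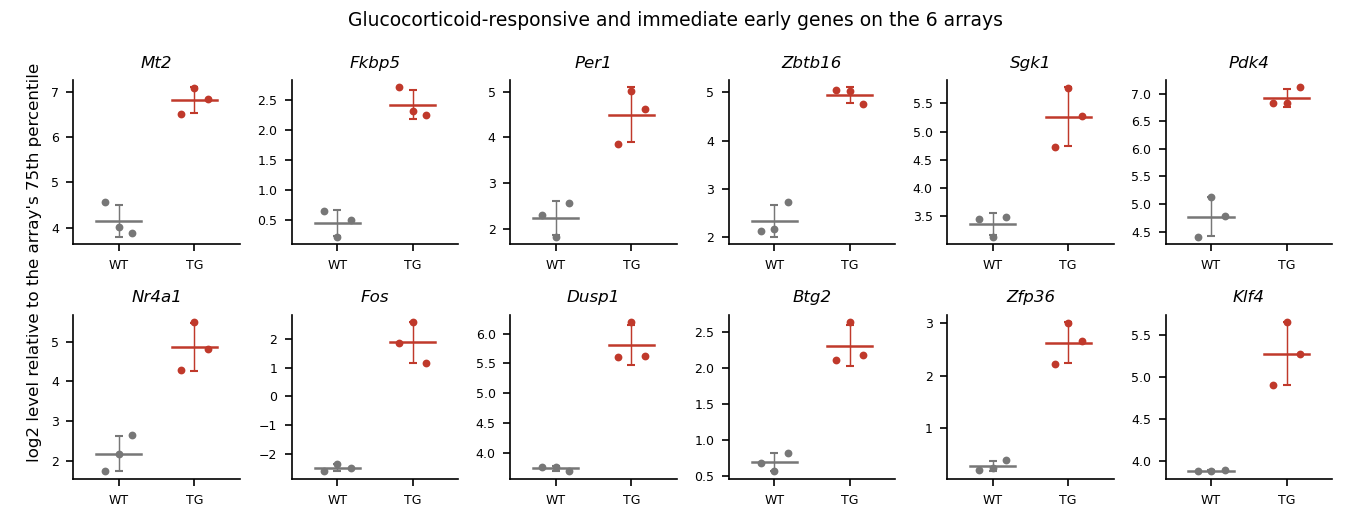
Log2 level of 6 glucocorticoid-responsive genes (top) and 6 immediate early genes (bottom) on each WT and TG array (points), with the group mean and standard deviation. In all 12 genes the lowest TG array lies above the highest WT array.

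The promoters of 4 of the early genes that rose, picked because they hold the motif named next, and of Mt2 are shown so that the matches can be seen, each as the 250 bases before the RefSeq start, read 5′ to 3′ on the gene's strand in GRCm38.p6. Capitals mark the motif cAMP response element TGACGTCA or its core TGACG, on either strand, in the first 4, and in Mt2 the core of the metal response element, TGCACNC or TGCGCNC. The element contains the core on both strands, so each full element also counts as 2 cores. Nr4a1 lies at chr15:101266596-101266845 (+), Fos at chr12:85473640-85473889 (+), Dusp1 at chr17:26508473-26508722 (-), Btg2 at chr1:134079156-134079405 (-) and Mt2 at chr8:94172368-94172617 (+).
Nr4a1: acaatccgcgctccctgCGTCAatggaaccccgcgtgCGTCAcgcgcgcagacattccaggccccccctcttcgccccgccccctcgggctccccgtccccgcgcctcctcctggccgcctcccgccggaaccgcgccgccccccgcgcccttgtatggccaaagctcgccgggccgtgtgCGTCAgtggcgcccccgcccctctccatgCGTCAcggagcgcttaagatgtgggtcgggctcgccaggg
Fos: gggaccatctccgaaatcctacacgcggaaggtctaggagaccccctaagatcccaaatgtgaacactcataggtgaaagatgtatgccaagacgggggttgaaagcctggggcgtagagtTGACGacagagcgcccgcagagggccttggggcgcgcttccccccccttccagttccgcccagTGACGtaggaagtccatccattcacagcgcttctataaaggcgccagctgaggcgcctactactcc
Dusp1: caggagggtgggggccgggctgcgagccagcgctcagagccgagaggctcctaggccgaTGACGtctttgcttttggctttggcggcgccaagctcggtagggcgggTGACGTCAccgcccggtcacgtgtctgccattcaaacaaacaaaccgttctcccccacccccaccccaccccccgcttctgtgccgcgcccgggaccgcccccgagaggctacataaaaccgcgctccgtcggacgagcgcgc
Btg2: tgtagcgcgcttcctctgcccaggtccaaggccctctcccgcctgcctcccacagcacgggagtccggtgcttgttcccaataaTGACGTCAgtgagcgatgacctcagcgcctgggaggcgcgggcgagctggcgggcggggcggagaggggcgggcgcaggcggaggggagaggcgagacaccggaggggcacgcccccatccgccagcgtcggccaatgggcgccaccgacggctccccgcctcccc
Mt2: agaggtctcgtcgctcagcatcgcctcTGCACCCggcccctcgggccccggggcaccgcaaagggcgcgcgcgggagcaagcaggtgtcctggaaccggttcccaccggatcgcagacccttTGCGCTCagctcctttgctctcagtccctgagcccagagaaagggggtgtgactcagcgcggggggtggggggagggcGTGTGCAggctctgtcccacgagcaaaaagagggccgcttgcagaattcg
The Nr4a1 window held 4 matches to TGACG, that of Fos 2, that of Dusp1 3 with 1 full element, and that of Btg2 2, both within its 1 full element. Over all 32851 promoters of the table, 17.8% held TGACG at least at 1 place, 0.137% at 4 or more, and 1.55% held the full element. Of the 10 early genes that rose, 7 held TGACG, Zfp36, Dusp6 and Gadd45g had 0 matches, and among the 16 others with a promoter entry 7 did, including Nr4a3 with 4 matches. The glucocorticoid response element core ACANNNTGT, found in 5.84% of all promoters, lay in this window of 2 of the 9 called glucocorticoid-responsive genes with an entry, Mt1 and Sgk1. Mt2 held 3 matches to the metal response element core, a motif present in 21.4% of all promoters. The promoters printed were chosen after their matches were seen, and a match is a description of these letters, not a site of binding.

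Genes of the clock and of fuel use that respond to the same hormones can be read beside these. Of 18 clock genes 2 were called. Per1 was higher, and Arntl, whose protein drives Per1 transcription, was lower, at -0.58, 0.13 and -0.51 in WT and -1.39, -1.76 and -1.03 in TG (-1.08 ± 0.23, adjusted p = 0.039). Per2 differed by 1.41 and Ciart by 2.48 without passing, and Dbp (0.25), Nr1d1 (0.11) and Clock (0.00) did not pass either. White adipocyte markers, 0 of 8 called, had a median of 3.67, or 0.47 without the 4 tested through TG alone, and summed to 197 to 225 in WT and 244 to 380 in TG, and their part in the metabolic genes described here was not tested. Of 31 genes of fatty acid uptake and oxidation 2 rose, Pdk4 and Cpt1a, the carnitine transferase that admits fatty acids to the mitochondrion (0.57 ± 0.11), and the median was -0.19. Of 41 genes of oxidative phosphorylation and the citrate cycle 0 were called in limma, although 40 had a negative difference, with a median of -0.31. In 27 of the 41 every TG array lay below every WT array, beside 20.9% of all genes tested. Of 31 glycolysis and hypoxia genes 1 fell, the oxygen-dependent prolyl hydroxylase Egln3 (-1.06 ± 0.23), and the median was -0.27.

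Of 89 tested contractile and electrical genes of the cardiomyocyte 1 rose and 1 fell, 2.25%, near the 2.62% of all genes tested. Of 26 contractile genes 0 were called, 25 had a negative difference, and the median was -0.22. Of 19 calcium-handling genes 1 rose, Casq1, the calsequestrin of fast skeletal muscle, from -1.06, -1.39 and -1.17 to 0.95, 1.14 and 0.65 (2.12 ± 0.27, adjusted p = 0.00574). Of 21 potassium channel genes 1 fell, Kcnj2, the channel of the inward rectifier current that holds the resting potential, from 4.08, 4.24 and 3.94 to 3.27, 3.27 and 3.50 (-0.74 ± 0.14, adjusted p = 0.0248). Kcnj4, a related channel, fell from -3.52, -3.05 and -3.30 to levels below background on all 3 TG arrays (at least 1.21-fold, adjusted p = 0.0331). Of 23 sodium channel and intercalated disc genes 0 were called, and Gja1, which encodes connexin 43, was at 2.88, 2.98 and 2.80 in WT and at 1.57, 2.41 and 1.74 in TG, lower on every TG array but not past the threshold (adjusted p = 0.165). Adora1, the adenosine receptor that slows the heart (1.35 ± 0.14), and Gnao1, a G protein alpha subunit (1.77 ± 0.22), both rose and were in the core.

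Of 143 tested genes on 5 immune lists 6 rose and 1 fell, 4.9% of them, beside 2.62% of all genes tested. Of 46 Toll-like receptor pathway genes 1 rose, the kinase Ripk1 (0.46 ± 0.10 at its brighter probe, -0.27 at the other), with a median of -0.06, the same as that of all genes tested. The inhibitor of NF-kappaB Nfkbia had the highest difference of the list, 1.42, and did not pass (adjusted p = 0.0716). Of 13 inflammasome genes 0 were called, of 32 interferon-stimulated genes 1, Ifi27l2a (1.16), and of 37 cytokine and chemokine genes 2, Ptgs2 higher and Cxcl14, a chemokine of resident tissue cells, lower (-1.58 ± 0.33). The summed linear level of the cytokine and chemokine list was 119 to 124 in WT and 83.6 to 93.4 in TG, lower on every TG array. Complement genes gave 3 of 18 higher, with a median of 0.63: C2, the protease of the classical pathway (1.95 ± 0.34), Masp1, a protease of the lectin pathway (1.07 ± 0.16), and C1qb (0.64 ± 0.12). Lyve1, a hyaluronan receptor of lymphatic endothelium and of resident macrophages, went from 0.53, 0.51 and 0.31 to 2.01, 1.94 and 1.83 (1.47 ± 0.18, adjusted p = 0.00483) and was in the core. Of 21 endothelial markers 2 fell, Egfl7, a secreted vascular factor (-0.41), and Sox18, a transcription factor of vessels (-0.63). Of 26 macrophage markers 23 had a positive difference and 2 were called, Lyve1 and C1qb.

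**Figure D3:**
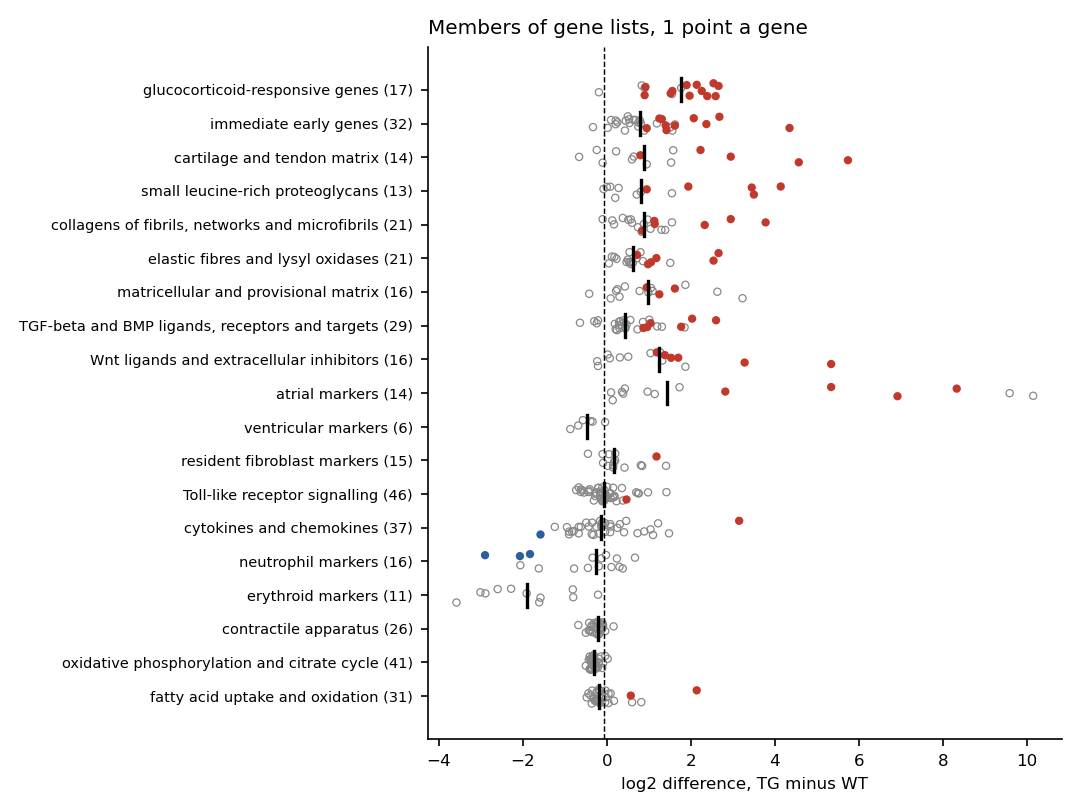
Log2 difference, TG minus WT, of each tested member of 19 gene lists, 1 point a gene, with the number tested in brackets; filled points passed the threshold, black ticks are list medians and the dashed line is the median of all genes, -0.06. The glucocorticoid-responsive list has the largest share called, 12 of 17, and no called member of a matrix list lies to the left of 0. The lists were chosen with earlier results of these data known.

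Among genes that fell, those of granulocytes were prominent by size. Ltf, lactoferrin of neutrophil granules, was at -1.76, -3.13 and -3.48 in WT and below background in TG, at least 1.71-fold lower (adjusted p = 0.0261). Its p-value concerns a gene tested only because WT was high, since it was above background on 0 TG, 0 WT_MI and 0 TG_MI arrays. Camp, an antimicrobial granule peptide, went from -0.17, -1.33 and -1.69 to -3.01, -3.01 and -2.65 (-1.83 ± 0.34, adjusted p = 0.0224). WT replicate 1 was the highest array in both genes, and without it the adjusted p was 0.0921 for Ltf and 0.0351 for Camp. The neutrophil list held 3 calls of 16, 18.8%, beside 2.62% of all genes tested, Ltf among them, all lower, with a median of -0.27. In the leave-one-out fits 0 to 4 of its members were called. It summed to 142 to 159 in WT and 118 to 129 in TG. Of 11 erythroid markers 0 were called, and 10 of them had every TG array below every WT array, beside 20.9% of all genes tested. The sum of the erythroid list was 1650 to 2560 in WT, highest in WT replicate 1, and 672 to 1210 in TG. The amount of blood left in the hearts was not measured, and its part in these genes was not tested.

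Other genes that fell did not belong to a blood cell list. Prdm1, a repressor that directs the differentiation of plasma cells and other lineages, had the smallest adjusted p of the lower genes with a gene name, with 0.34, 0.10 and 0.50 in WT and -2.35, -2.32 and -2.22 in TG (-2.61 ± 0.27, adjusted p = 0.00239). Mycn, a growth-promoting transcription factor, fell from 2.07, 1.30 and 1.77 to 0.04, -0.39 and -0.42 (-1.97 ± 0.29, adjusted p = 0.00907). Bcl6b, a repressor, fell by -1.32 ± 0.17, Mgat3, a glycosyltransferase, by -1.59 ± 0.23, Glis1, a zinc finger factor, by -1.16 ± 0.17, and Tmem74b, a membrane protein, by -0.73 ± 0.11. Glis1 and Tmem74b each had another probe that hardly differed, at -0.17 and -0.02. All 6 genes were called in every leave-one-out fit. Cenpf, a mitotic kinetochore protein, fell by -1.84 ± 0.41, but of 20 cell cycle genes 0 were called.

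A division by kind of transcript ran through the calls. Of 338 called protein-coding genes 237 were higher and 101 lower, so 29.9% fell. Of 25 called long non-coding RNA genes of RefSeq 3 were higher and 22 lower, so 88.0% fell, while the share called was alike, 2.42% of 13947 coding and 2.65% of 945 non-coding genes. Of these 25, 9 were not above background on at least 1 TG array. Between the 2 kinds lay transcripts without a RefSeq gene, with 54 of 153 calls higher and 99 lower, so 64.7% fell. Among all tested genes 57.8% of coding and 67.1% of long non-coding genes had a negative difference, and the median level of the non-coding ones was -1.79 against 1.20. Under quantile normalization 27.1% of coding and 86.4% of non-coding calls fell. Gm14207, a non-coding transcript of chromosome 2 singled out after its values were seen, fell from -1.73, -1.81 and -1.84 to -3.20, -3.28 and -3.03 (-1.38 ± 0.16, adjusted p = 0.00483). Whether the lower signal of these transcripts bears on the direction was not tested.

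Along the genome the calls were spread widely, from 2.05% to 3.40% of tested genes on the autosomes and X. A few short runs stood out in coordinates of mm9, the build of the array files, and were singled out after their values were seen. On chromosome 6, 4 of the 8 tested genes between 112668239 and 113103391 were higher: Srgap3, AK076574, AK042057 and Setd5. The probe of AK042057 lay between probes of Setd5 on the same strand, and that of AK076574 lay before them on that strand. A single RNA may thus be read under more than 1 of these names. AK042057 and Setd5 were in the core. Setd5, a chromatin regulator with a SET domain, stood at 3.61, 3.65 and 3.53 in WT and at 4.30, 4.38 and 4.35 in TG (0.75 ± 0.09, adjusted p = 0.00491). All 5 of its probes were higher on every TG array than on every WT array, by 0.71 to 1.17, and all 5 were also higher on every TG_MI array than on every WT_MI array, by 0.61 to 0.96. Next to Setd5 lies Gt(ROSA)26Sor, a locus widely used to insert transgenes into the mouse genome. Whether the transgene was inserted there was not tested. The brightest of its 3 probes was at 2.09, 2.16 and 2.27 in WT, at 2.75, 4.59 and 2.75 in TG, at 2.60, 2.39 and 2.61 in WT_MI and at 5.0, 5.56 and 6.62 in TG_MI. It was thus higher on every transgenic array, which passed the threshold after infarction (3.19, adjusted p = 0.0241) but not before it (1.19, adjusted p = 0.236). The other 2 probes of that locus were faint and differed by -0.11 and -0.41 in uninfarcted hearts. Thumpd3, on the other side, had 3 probes whose TG and WT arrays overlapped, and Lhfpl4, beyond Setd5, differed by -0.25.

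**Figure D4:**
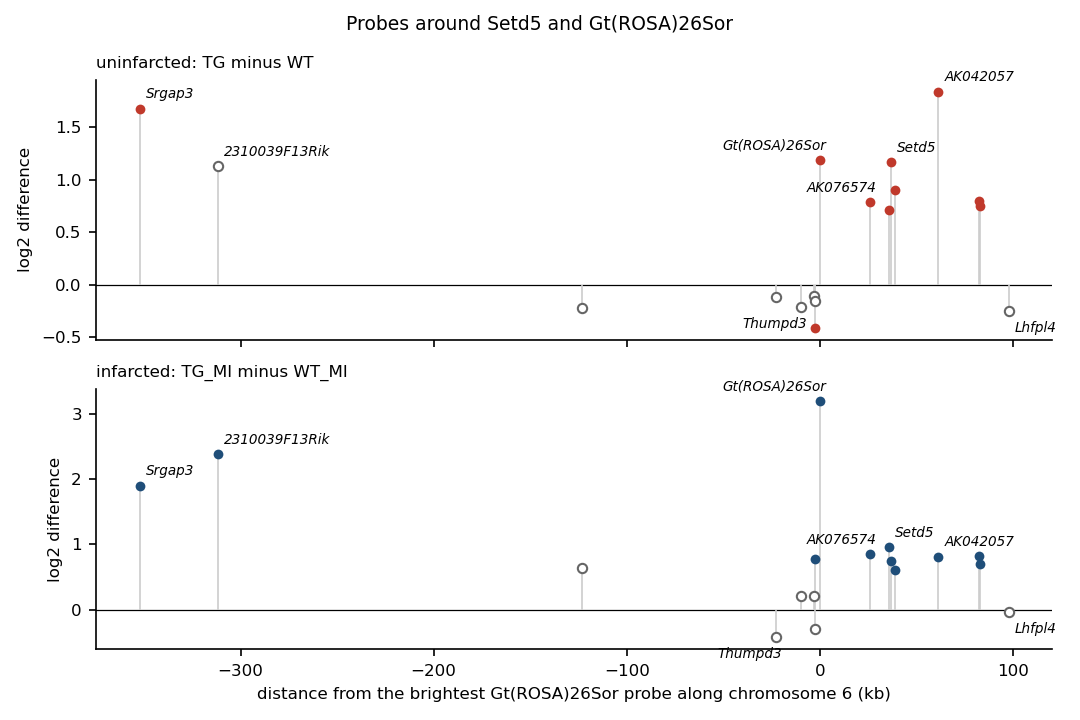
Log2 difference of each probe with signal on at least 3 arrays, TG minus WT (top) and TG_MI minus WT_MI (bottom), against its distance in kb from the brightest Gt(ROSA)26Sor probe; filled points mark probes whose groups do not overlap. The 5 Setd5 probes, 36 to 83 kb to the right, are raised in both panels, and the Thumpd3 probes to the left are not.

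On chromosome 9, 4 of 4 tested features between 78116774 and 78178915 were lower: Gsta2 (-1.47 ± 0.24), Gm10639 (-1.54 ± 0.24) and 2 unnamed transcribed intervals (-1.51 and -1.34). They belong to or adjoin a family of near-identical glutathione transferases, which detoxify electrophiles, so a single RNA may be read by several of these probes. Gsta2 was at -0.14, -0.52 and -0.03 in WT and at -2.03, -1.53 and -1.54 in TG, and Gsta2 and Gm10639 were lower after infarction as well (-1.09 and -1.08, adjusted p = 0.0288 for both). Gm10639 was in the core. On the X chromosome, Chrdl1, Pak3 (2.05) and AK132033 (2.33), 3 of 3 tested between 139721965 and 140711125, were all higher in TG, and none was called in TG_MI against WT_MI. Of these 3, Chrdl1 was tested through TG alone.

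The same genotype contrast in infarcted hearts shares no array with that in uninfarcted ones, but all WT_MI arrays lay on slide 1 and all TG_MI arrays on slide 2, so slide and genotype cannot be told apart there. That contrast called 2403 genes, 12.2% of those tested. Both contrasts called 63 genes, 12.2% of the uninfarcted calls, which equals the 12.2% called among all genes tested. Of the 63, 38 differed in the same direction (21 higher and 17 lower, 7.34% of the uninfarcted calls and 1.58% of the infarcted ones) and 25 in opposite directions. The 38 included Chad, Prdm1, Bcl6b, S100a9, Tsc22d3, the chromosome 6 genes Srgap3, AK076574, AK042057 and Setd5, and Gsta2 and Gm10639 of chromosome 9. Of these, Chad was tested only because the transgenic groups were high. S100a9, a calcium-binding protein of neutrophils, was lower in TG by -2.07 and in TG_MI by -2.72. Of the 518 genes called in uninfarcted hearts, 304 differed between the 2 contrasts when that difference was itself tested, beside 8.74% of all genes tested. The 518 were chosen for their uninfarcted difference, which is a term of that test, so the first count is a description.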

How the data were processed

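RNA of 12 mouse heart samples, 3 in each of 4 groups, was hybridised in 1 colour to Agilent arrays. Per the file headers, the deposited signal intensity of each spot is the processed Cy3 signal of Feature Extraction 12.0.3.1, background-subtracted and not normalized between arrays, and probe positions are in mm9. The deposited value table of the series holds log2 values made by the authors and served as an alternative. Per the submitters' processing notes limma was used, with no version or role stated. Here log2 of the intensity minus each array's 75th percentile was taken for 56605 non-control probes. Spots called outliers were left out, and with them 49 probes that had no other spot on some array. Each gene was read from its probe of highest mean over the arrays, and 19761 of 36981 genes, those whose probe stood well above background in all 3 samples of any group, were tested with limma 3.58.1 in R 4.3.3 in 1 model of all 12 arrays (residual df 8, prior df 2.55, empirical Bayes), with Benjamini-Hochberg adjustment and a threshold of 0.05. A probe not well above background on any array of a group gives a bound, the lowest signal well above background standing for it.

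The array count limits the precision, and there are no read depths. Genes were named by rule: of called genes with a gene name and non-overlapping groups, the 12 with the largest difference and the 8 with the smallest adjusted p in each direction, every called member of 57 gene lists, list members as values, and genes of runs along a chromosome. The members and lists were chosen with earlier results of these data known. Promoters are RefSeq's, on GRCm38.p6, and were matched by symbol. Scripts were tested on simulated data, with Python 3.11.15, pandas 2.3.3 and numpy 2.4.6. In all 24 alternatives to the processing were run. Some genes are not reported here.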

Additional observations from a re-analysis of the deposited data

Results flagged for a closer look

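Of 108 called genes named in the text, 65 had a genotype difference in infarcted hearts (TG_MI minus WT_MI) that was not the same as in uninfarcted hearts (TG minus WT), by limma's test of the difference between both at an adjusted p of 0.05. The values below are the infarcted difference less the uninfarcted one in log2 units, so a negative value means that the difference was lower after infarction than before it. All TG_MI arrays were on slide 2 and all WT_MI arrays on slide 1, so slide and genotype cannot be told apart in the infarcted difference. Over all genes tested, 8.74% differed in this way. The named genes were chosen for their uninfarcted difference, which is a term of the test, so their count is a description.

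Among cartilage, tendon and proteoglycan genes the value was -5.24 for Ucma, -5.90 for Cilp2, -2.56 for Comp, -1.82 for Chad, -4.11 for Epyc, -3.28 for Fmod and -1.26 for Bgn. Among other matrix genes it was -4.53 for Col8a2, -3.36 for Col12a1, -2.82 for Col4a6, -1.15 for Col8a1, -3.97 for Ltbp2, -1.37 for Mfap5, -2.33 for Ccn2 and -1.83 for Postn. For proteases it was -4.62 for Prss35, -4.36 for Adamts8, -1.26 for Adamts2 and -1.23 for Mmp3.

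For secreted signals and their brakes the value was -3.65 for Inhba, -1.08 for Skil, -1.53 for Fstl1, -1.83 for Frzb, -1.83 for Nkd1 and -5.48 for Dkk3. For contractile proteins of atrium and smooth muscle it was -9.34 for Mybphl, -2.28 for Tagln and -4.13 for Cnn1. Among glucocorticoid-responsive genes it was -2.89 for Mt2, -1.07 for Mt1, -3.88 for Angptl4 and -1.97 for Errfi1. Among immediate early genes it was -4.77 for Fos, -2.92 for Nr4a1, -1.81 for Nr4a2, -1.99 for Dusp1, -1.39 for Dusp6, -2.39 for Zfp36, -2.28 for Btg2 and -1.96 for Gadd45g.

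Immune genes gave -1.87 for C2, -1.21 for Masp1, -1.24 for Lyve1, -0.70 for Ripk1, -4.67 for Ptgs2, 2.19 for Cxcl14 and 2.04 for Camp, and the prostaglandin and sphingosine genes -2.25 for Ptgis, -0.90 for Ptger4 and 1.30 for S1pr5. Signalling and channel genes gave -1.31 for Adora1, -1.69 for Gnao1, -2.71 for Pak3, 1.13 for Kcnj2 and 3.07 for Kcnj4. Of the genes that were lower in TG, the value was 1.60 for Prdm1, 2.11 for Mycn, 1.52 for Mgat3, 1.88 for Glis1, 1.14 for Tmem74b, 3.40 for Cenpf, 1.53 for Arntl and 0.92 for Gm14207. The transcripts AK042057 and AK132033 gave -1.03 and -2.86.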

How the results depend on the processing

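Against 518 genes in all, 294 higher and 224 lower, with 38 shared in direction with the infarcted contrast, the counts varied widely. They were 906, 465 and 441 with only the 6 WT and TG arrays, 315, 176 and 139 with slide as a block, and 1948, 918 and 1030 with array weights (287 shared). Testing dim genes too gave 205, 120 and 85 (1 shared). Leaving out 1 array gave 137 to 864 genes, 87 to 483 higher, 50 to 381 lower and 0 to 48 shared; without WT replicates 1, 2 and 3 the total was 158, 137 and 162, without TG replicate 1 it was 243, and without TG_MI replicate 3 it was 864. Quantile or median scaling, normexp, the authors' value table, slide 1 alone, genes above background on all 6 arrays and the mean of probes gave totals from 413 to 506. With the replicate block there were 342 genes, 200 higher and 142 lower (20 shared). Same-numbered WT and TG arrays had correlations of -0.0099, 0.0509 and -0.0669, and differently numbered ones ranged from -0.103 to 0.123. The numbers thus gave no sign of pairing, which these correlations cannot exclude.

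Of the 108 called genes named here, 34 were called in every leave-one-out fit and 60 with slide as a block. In 1 case a direction reversed: Ripk1, at -0.01 with the mean of its probes. Dim signal limits the folds given as bounds.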

Other observations

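The 5 genes of prostaglandin synthesis and signalling given here were picked because they were called higher in TG, and other genes of the pathway were not counted. Ptgs1, the constitutive cyclooxygenase, stood at 0.56, 0.50 and 0.67 in WT and at 1.76, 1.52 and 1.44 in TG on the log2 level, a difference of 1.0 ± 0.22 (limma adjusted p = 0.039). Ptgis, the prostacyclin synthase, went from 1.72, 1.84 and 1.90 to 4.00, 3.16 and 2.87 (1.53 ± 0.28, adjusted p = 0.022), although another of its 3 probes differed by 0.03. The inducible cyclooxygenase Ptgs2 was not above background in WT and was at least 2.66-fold higher in TG. Of the receptors, Ptger4 rose by 0.76 ± 0.14 and Ptgfr by 2.45 ± 0.52. Each of these 5 genes lost its call without at least 1 array, and they were called in 4, 9, 4, 10 and 5 of the 12 fits that left out 1 array, in the order given.

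Receptors for sphingosine 1-phosphate, a lipid that keeps lymphocytes circulating and vessels tight, moved in opposite directions. S1pr1 was higher in TG by 0.97 ± 0.22 (limma adjusted p = 0.0486), while S1pr3 (-0.57 ± 0.13) and S1pr5 (-1.01 ± 0.17, adjusted p = 0.014) were lower. These receptors, too, were singled out after their values were seen, and none was called in all 12 of those fits.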
